A study of Homo sapiens with 8 samples.

Results

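The mitochondrial ribosomal protein genes are the nuclear genes for the proteins of the ribosome inside mitochondria. They were chosen by symbol, as MRPL or MRPS followed by digits, with an optional A, B or C ending and without pseudogenes. This gave 78 of the 60652 gene rows of the count tables, 49 named MRPL for the large subunit and 29 named MRPS for the small subunit. Expression was measured by poly(A) RNA sequencing in 8 libraries made from HEK293T, a human line of embryonic kidney origin. The cells carry a GFP reporter behind the TRE3G promoter, which holds tet operator sites. They were transfected with plasmids that encode a guide RNA and a nuclease-dead Cas protein fused to the activator VPR. Sorting by mCherry and BFP fluorescence followed 2 days after transfection. There were 4 groups of 2 libraries: dCasMINI-VPR with the guide named Tet (sgTet), dCasMINI-VPR with a non-targeting guide (sgNT), dCas12a-VPR with the Tet guide (crTet) and dCas12a-VPR with a non-targeting guide (crNT). All groups thus carry the reporter, an activator and a guide, and no library is of untransfected cells. No guide sequence is given, and the labels do not say whether replicates came from separate transfections, so p-values measure only the spread between these libraries, which may be technical.

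Mitochondria carry their own small genome, and the ribosome that translates it is built from rRNAs encoded in that genome and from proteins encoded in the nucleus, made in the cytosol and imported. The ribosome is known for a high share of protein, and many of its proteins have a bacterial homologue while the rest were added in mitochondria. All of its products are subunits of the oxidative phosphorylation complexes, so the genes are expressed in nearly every cell type. By the nomenclature of assembled ribosomes, 46 members have a bacterial homologue and 31 are specific to mitochondria. MRPS36, now known as KGD4, a subunit of the 2-oxoglutarate dehydrogenase complex, was left out of that split. MRPS30 and MRPS18A are held by the large subunit despite their names, which leaves 26 members in the small subunit and 51 in the large.

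Gene reads came to between 17474404 and 21081942 per library, and 3 reads corresponded to 0.145 to 0.17 CPM, a floor for counting error only. The unmapped share was 14.4% and 12.7% in crNT and between 8.32% and 9.62% elsewhere. EGFP, the reporter transcript, had 920 and 1094 CPM in sgTet against 3.23 and 4.42 CPM in sgNT, and 804 and 708 CPM in crTet against 2.77 and 2.66 CPM in crNT. A list of 5 HEK293T genes with neuronal and embryonic kidney character summed to 284 to 347 CPM, and 12 markers of blood, endothelial, fibroblast and liver cells summed to 32.9 to 46.4 CPM, of which the fibroblast gene COL1A1 alone held 32.4 to 44.4 CPM. The other 2 fibroblast genes, DCN and LUM, had medians of 0.0759 and 0.91 CPM. Of the blood markers, 2 of 4 had no read in any library.

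Most members lay within a few-fold of each other per transcript length, and a few were counted near 0. Over the 4 groups the members had a median of 49.5 CPM per kb of principal transcript, with quartiles of 24.1 and 89.7 CPM per kb. MRPL37, a protein found only in mitochondrial ribosomes, had the highest level at 266 CPM per kb. MRPL55 at 167 CPM per kb, MRPL23 at 157 CPM per kb, MRPL18 at 150 CPM per kb and MRPL28 at 142 CPM per kb followed. MRPL23 lies at the exit of the tunnel through which the new peptide leaves the ribosome, and MRPL18 belongs to the central protuberance. Per kb, the median was 38.8 CPM over the 29 MRPS genes and 67.5 CPM over the 49 MRPL genes, with wide overlap. Before division by transcript length the medians were 75.1 CPM over MRPS and 76.5 CPM over MRPL genes, so this gap appears only per length. The same level was 56 CPM per kb over members with a bacterial homologue and 48.7 CPM per kb over those specific to mitochondria.

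**Figure D1:**
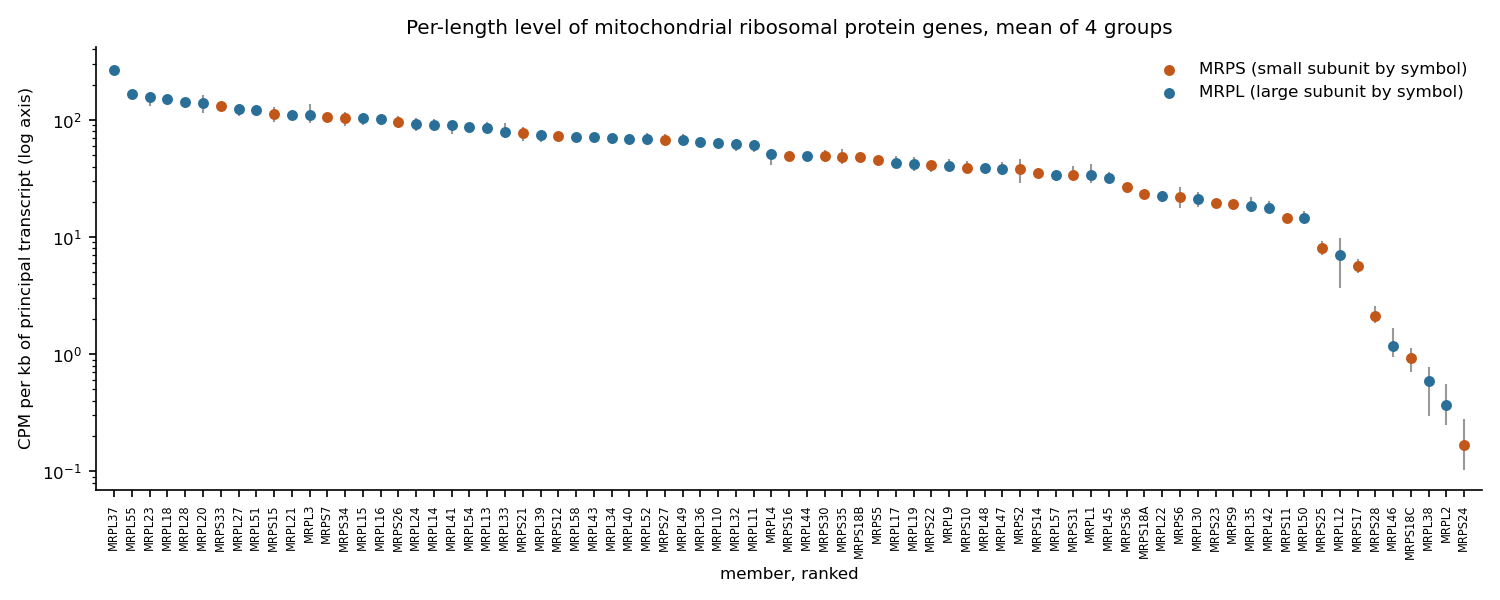
Level of each member per kb of principal transcript (CPM per kb, log axis), ranked, as the mean of the 4 groups. Orange points are MRPS and blue points MRPL genes, and grey bars span the lowest to the highest group mean. Levels decline gradually from 266 CPM per kb for MRPL37, then drop steeply over the last members; MRPL53, with no read, cannot be drawn on the log axis.

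The lowest members were MRPL53 with no read in any library, which allows a level of up to 0.145 to 0.17 CPM, MRPS24 at 0.168 CPM per kb, MRPL2 at 0.371 CPM per kb, MRPL38 at 0.593 CPM per kb and MRPS18C at 0.936 CPM per kb. All 5 share exon bases with another annotated gene. MRPS24, the small-subunit homologue of bacterial S3, had 19 reads in all libraries together and shares 23.2% of its exon bases with the readthrough gene URGCP-MRPS24 in GENCODE 29. MRPL53 shares 45.2% with CCDC142, MRPL38 shares 41.1%, MRPS18C shares 40.2% with ABRAXAS1, and MRPL2 shares 14.7% with KLC4. In GENCODE 29, 41 of the 78 members share an exon base with another gene and 37 do not. The annotation behind the counts is not given, and 38182 of the 60652 gene rows carry the same GENCODE 29 version. MRPS34 and MRPL3 are among the 37. Yet their strand columns together held 1.91 and 1.26 times as many reads as the column that ignores strand. The split may thus differ in the annotation used for counting. The 37 that do not had 34.5 CPM or more, while 9 members, all of them sharing bases, lay below 11 CPM. The sources used here do not give the authors' counting options. In the column that ignores strand, a total named ambiguous, assigned to no gene, held 10.4% to 11.2% of reads per library. Whether reads in the members' shared bases are among these was not tested. The 2 strand columns together held 34.9 times as many reads for MRPS18C as the column that ignores strand. The ratio was 1.99 for MRPL2, 1.27 for MRPL38 and 1.0 for MRPS24, and MRPL53 had no read in the strand columns either. The low values of these members are given as levels in the column that ignores strand.

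The guide effect with dCasMINI-VPR was read by setting sgTet against sgNT. Of the 76 members tested, 1 was called higher and 0 lower at an adjusted p under 0.05, where 0.47% of all 16606 genes tested were called higher and 0.325% lower. The members called were therefore near the background share. At an unadjusted p under 0.05 there were 18 members. Here and below, the share of all genes tested at that unadjusted limit is not given. Counts at it thus have no background and cannot be read as high or low. The median log2 fold change over the members was 0.082, against 0.000 over all genes tested, and 56 of 76 members lay above 0.

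MRPL3 (ENSG00000114686.9, chromosome 3, 131462212 to 131502983 on hg38), the homologue of bacterial L3 near the peptidyl transferase centre, was the member called. It had 249 and 209 CPM in sgTet against 183 and 184 CPM in sgNT. Both sgTet libraries lay above both sgNT libraries, as in 20.6% of all genes tested, and sgTet replicate 1 was the highest of all 8. The log2 fold change was 0.32 ± 0.08 (SE, adjusted p = 0.0353). This call was lost without sgTet replicate 1 (0.19, adjusted p = 0.44), sgNT replicate 1 (0.304), sgNT replicate 2 (0.342), crNT replicate 1 (0.0805), crNT replicate 2 (0.0806) or crTet replicate 2 (0.0509), and with forward-strand (0.199) or reverse-strand counts (0.345), library size alone (0.0837) or only the groups compared (0.141).

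Over the 69 members at 11 CPM or more, the sgTet libraries differed from each other more than the replicates of the other groups did. The log2 ratio of replicate 1 to replicate 2 had an SD of 0.23 in sgTet, 0.10 in sgNT, 0.12 in crTet and 0.10 in crNT over these 69 members, and 0.32, 0.15, 0.24 and 0.16 in the same order over all 76 tested. MRPS34, a small-subunit protein specific to mitochondria, had 72.5 and 124 CPM in sgTet against 120 and 116 CPM in sgNT. MRPS26, another such protein, had 76.6 and 120 CPM in sgTet against 116 and 120 CPM in sgNT. In both genes sgTet replicate 1 alone was low, and replicate 2 lay near the sgNT libraries. The ratio moved with base composition: its Pearson r with transcript G+C was -0.49 in sgTet, -0.08 in sgNT, -0.14 in crTet and -0.26 in crNT over these 69 genes, which share the same 2 libraries in each group. In sgTet the r was -0.38 over all 76 tested members and -0.24 over all genes tested.

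**Figure D2:**
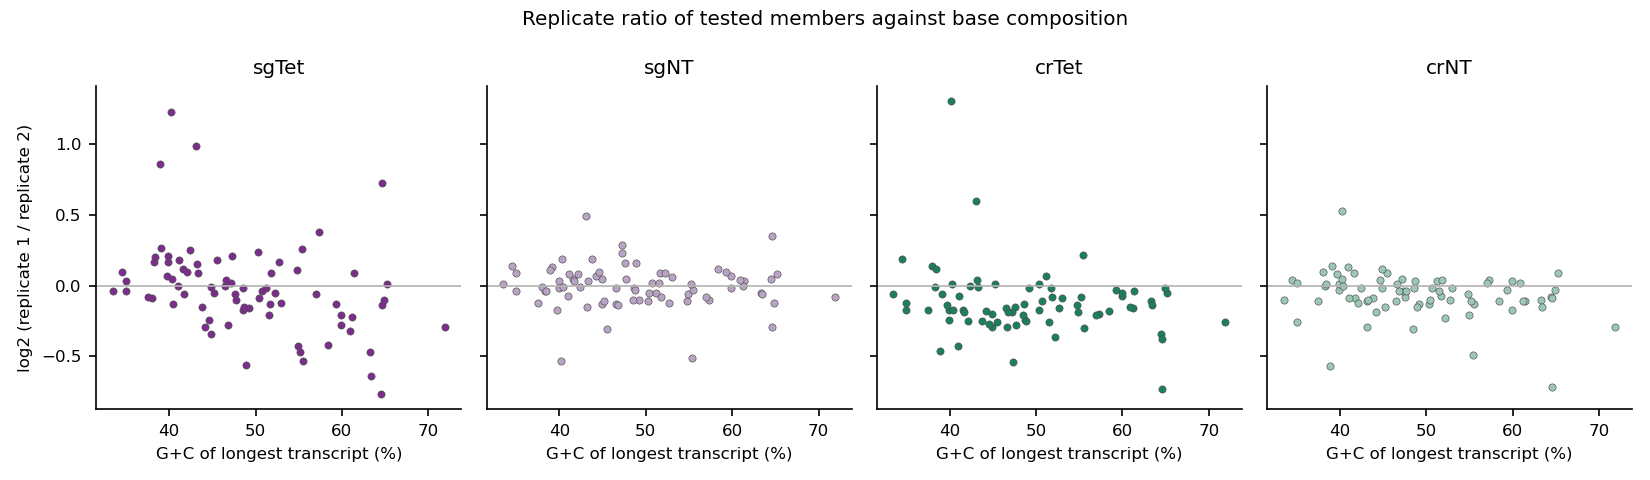
Log2 ratio of replicate 1 to replicate 2 for the 76 tested members (y axis, CPM + 0.1) against the G+C share of the longest transcript (x axis, percent), with a panel for each group. In sgTet the points slope downward. Over all 76 members they spread from -0.77 to 1.23 in sgTet, -0.53 to 0.49 in sgNT, -0.73 to 1.31 in crTet and -0.72 to 0.53 in crNT, and the highest point of crTet is MRPL46.

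With sgTet replicate 1 as the only sgTet library, more members were called than with both, and so were more of all genes tested. The 8 higher were MRPL1, MRPL3, MRPL35, MRPL42, MRPS2, MRPS10, MRPS27 and MRPS35, with a median G+C of 41.3%. The 8 lower were MRPL14, MRPL24, MRPL28, MRPL34, MRPL51, MRPL54, MRPS26 and MRPS34, with a median G+C of 58.2%. With sgTet replicate 2 as the only one, 0 members were called by edgeR, with 14 at an unadjusted p under 0.05. These lists were read after their values were seen, and the part of base composition in them was not tested. A fit of all 8 libraries with the length and G+C trend removed called MRPL3, MRPL35 and MRPS2 higher and none lower. The fit of all 8 libraries without that step also called none lower, so it cannot speak to the lower list.

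The guide effect with dCas12a-VPR was read by setting crTet against crNT. Of the 76 members, 5 were called higher and 0 lower, where 3.56% of all genes tested were called higher and 2.75% lower. All 5 have a bacterial homologue, as do 45 of the 76 tested. With dCasMINI-VPR the same 5 were not called. Their log2 fold changes there were 0.55 ± 0.22 for MRPL12, 0.32 ± 0.09 for MRPS2, 0.17 ± 0.08 for MRPL20, 0.05 ± 0.09 for MRPL4 and -0.08 ± 0.11 for MRPL33. None of the 5 was called for a difference between the 2 guide effects, so these calls are not shown to be particular to dCas12a-VPR. The members' median log2 fold change was 0.130 against 0.008 over all genes tested, and 61 of 76 lay above 0. It was 0.067 with the length and G+C trend removed and 0.073 without crTet replicate 2. The fold changes of the members ran from -0.52 to 1.14. Their Pearson r with transcript G+C was 0.35, against 0.16 over all genes tested. With dCasMINI-VPR it was -0.30, against -0.13 over all genes tested. The part of base composition in the fold changes was not tested.

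MRPS2 (ENSG00000122140.11, chromosome 9, 135499984 to 135504673), homologue of bacterial S2 in the small subunit, had 63.4 and 65.3 CPM in crTet against 44.6 and 48 CPM in crNT. The crTet libraries lay close together and well above both crNT libraries. Both crTet libraries lay above both crNT libraries in 26.3% of all genes tested, and for a called gene this is not separate support. The log2 fold change was 0.47 ± 0.09 (SE, adjusted p = 0.00172), and the call was lost without crNT replicate 1 (adjusted p = 0.113). It was also lost with forward-strand counts (0.21, adjusted p = 0.168) or reverse-strand counts (0.18, adjusted p = 0.253), which together hold 2.55 times as many MRPS2 reads.

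MRPL12 (ENSG00000262814.8, chromosome 17, 81703357 to 81707526), whose bacterial homologue forms the mobile stalk that recruits translation factors, had the largest fold change of the members. It had 6.39 and 10.7 CPM in crTet against 3.74 and 3.99 CPM in crNT. Both crTet libraries were higher, but they differed from each other by more than replicate 1 did from crNT. The log2 fold change was 1.14 ± 0.24 (SE, adjusted p = 0.00275). The call was lost without crTet replicate 2 (log2 fold change 0.73, adjusted p = 0.159) or without crNT replicate 1 (log2 fold change 1.09, adjusted p = 0.0786). MRPL12 rests on 73 to 214 reads per library, and 68.2% of its exon bases are shared with the annotated readthrough AC139530.2, which had no read in any library. MRPL10, the protein that anchors this stalk, had 105 and 111 CPM in crTet against 114 and 111 CPM in crNT (-0.05 ± 0.08, adjusted p = 0.782).

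MRPL4, whose bacterial homologue lines the peptide exit tunnel, had 73.5 and 74.6 CPM in crTet against 58.1 and 59.4 CPM in crNT (0.33 ± 0.09, adjusted p = 0.0222). The groups did not overlap. On forward-strand and reverse-strand counts, which hold 2.41 times as many MRPL4 reads, the fold change was 0.14 (adjusted p = 0.429) and 0.15 (adjusted p = 0.391). The call was also lost without crTet replicate 1 (0.0858), crTet replicate 2 (0.119), crNT replicate 1 (0.28) or crNT replicate 2 (0.146), and with the length and G+C trend removed (0.108).

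MRPL20, homologue of a bacterial protein needed early in assembly of the large subunit, had 98.8 and 109 CPM in crTet against 82.9 and 86.2 CPM in crNT (0.30 ± 0.08, adjusted p = 0.0287). MRPL33, a short protein of the large subunit, had 43.2 and 51.5 CPM in crTet against 35.8 and 38.1 CPM in crNT (0.36 ± 0.11, adjusted p = 0.0499). In both genes the crTet libraries lay above the crNT libraries, as in 26.3% of all genes tested. The MRPL20 call was lost without crTet replicate 2 (adjusted p = 0.279), crNT replicate 1 (0.351) or crNT replicate 2 (0.146), and with forward-strand counts (0.157) or library size alone (0.0516). The MRPL33 call was lost without crTet replicate 2 (0.448), crNT replicate 1 (0.432), crNT replicate 2 (0.174), sgNT replicate 1 (0.0667) or sgNT replicate 2 (0.065), in DESeq2 (0.0534), and in edgeR with DESeq2 size factors (0.0535), library size alone (0.0778) or forward-strand counts (0.224). Without crNT replicate 1 none of the 5 calls remained in edgeR. Leaving out either sgTet library raised the number of members called, with MRPL49 lower and the rest higher. It also raised the number called over all genes tested.

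**Figure D3:**
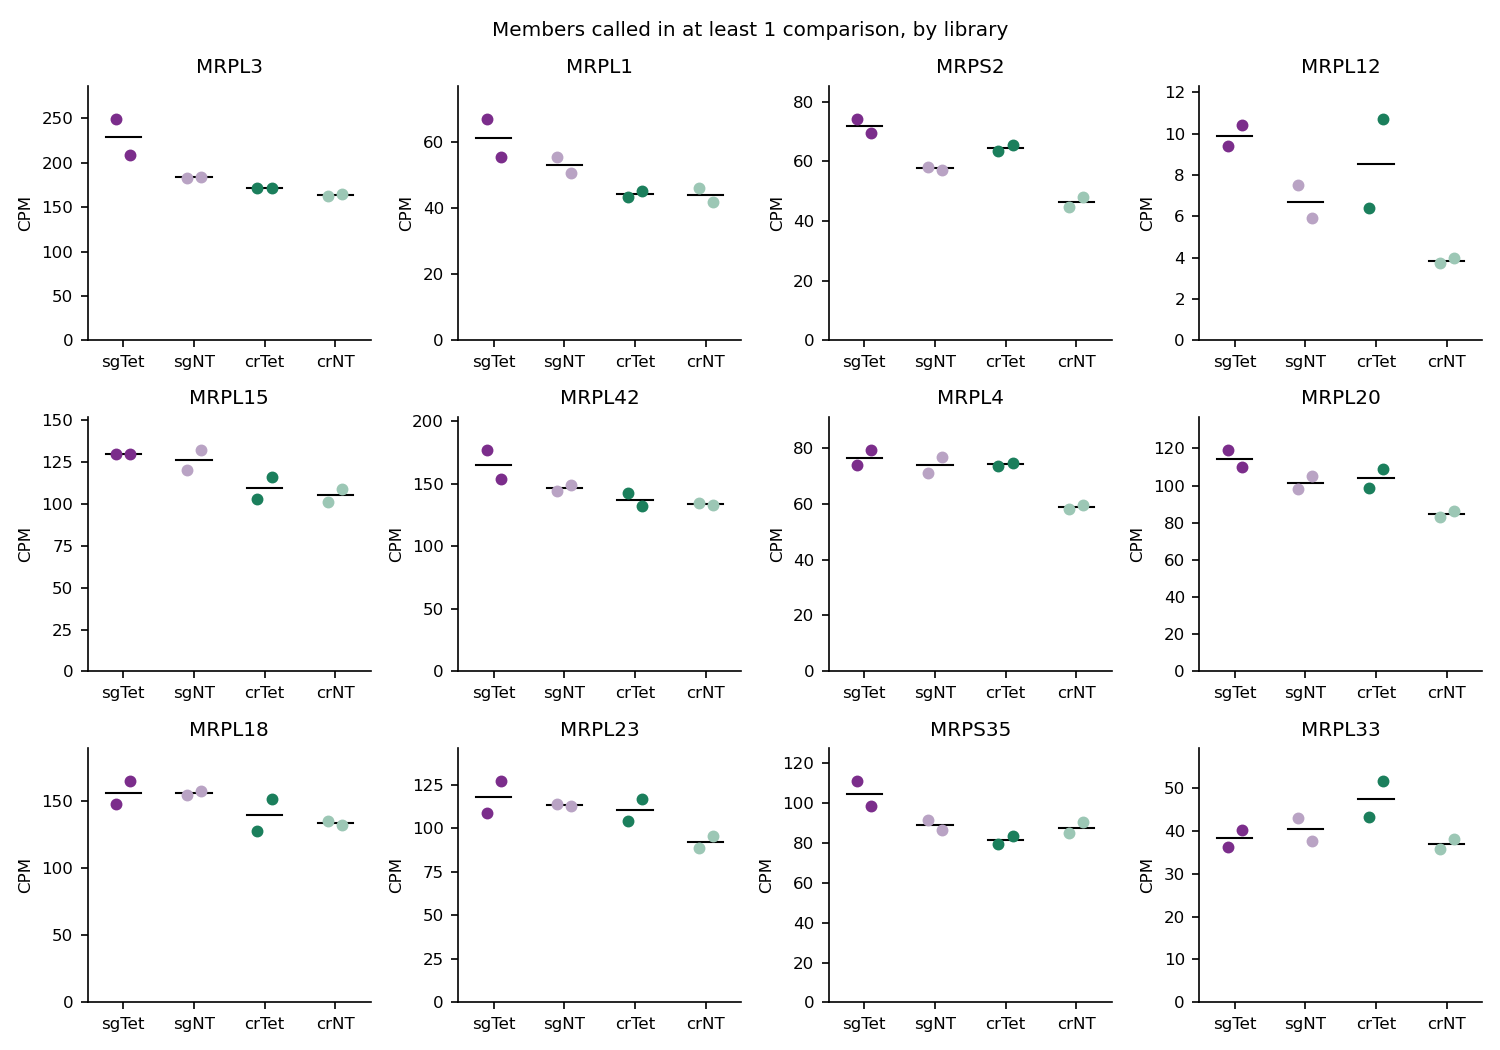
CPM (y axis, from 0) of the 12 members called in at least 1 comparison, with a point for each library and a line at the group mean, in sgTet, sgNT, crTet and crNT from left to right. In MRPS2 and MRPL4 both crTet libraries stand above both crNT libraries, and in MRPL3 sgTet replicate 1 is highest at 249 CPM.

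Whether the guide effect differed between activators was tested directly, as the dCasMINI-VPR effect minus the dCas12a-VPR effect. Of the 76 members, 0 were called by edgeR or DESeq2 in either direction, where edgeR called 0.506% of all genes tested higher and 0.843% lower. At an unadjusted p under 0.05 there were 12 members, again without a share over all genes tested. The median over the members was -0.045 against -0.012 over all genes tested. The Pearson r of this difference with transcript G+C was -0.43 over the members and -0.22 over all genes tested. MRPL35 had the smallest adjusted p (0.42 ± 0.13, adjusted p = 0.0987), with 85.4 and 73.8 CPM in sgTet against 61.5 and 62.4 CPM in sgNT, and 61.7 and 69.5 CPM in crTet against 68.9 and 68.2 CPM in crNT. It was chosen after its values were seen. With sgTet replicate 1 as the only sgTet library, members were called in both directions, more of them lower. More of all genes tested were called in that run too.

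The construct difference set the 4 dCasMINI-VPR libraries against the 4 dCas12a-VPR libraries over both guides. Of the 76 members, 10 were called higher with dCasMINI-VPR and 0 lower, where 4.83% of all genes tested were called higher and 5.2% lower. Of the 10, 8 have a bacterial homologue, as do 45 of the 76 tested. The large subunit holds 8 of the 10 and 50 of the 76. The members' median was 0.088 against 0.002 over all genes tested, and 58 of 76 lay above 0. The Pearson r of the fold change with transcript G+C was 0.11 over the members and -0.02 over all genes tested. The labels give no batch, and anything else that differed between the libraries of the 2 constructs cannot be told apart from the construct.

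MRPL3 had 249, 209, 183 and 184 CPM in the dCasMINI-VPR libraries against 171, 171, 163 and 165 CPM in the dCas12a-VPR libraries. Every dCasMINI-VPR library lay above every dCas12a-VPR library, and the log2 fold change was 0.29 ± 0.06 (SE, adjusted p = 0.000432). MRPL1 (ENSG00000169288.18, chromosome 4, 77862520 to 77952790), homologue of the protein of the bacterial L1 stalk at the tRNA exit, had 66.8, 55.4, 55.3 and 50.5 CPM in dCasMINI-VPR libraries against 43.2, 45.1, 46 and 41.7 CPM in dCas12a-VPR libraries. These groups did not overlap either, and the log2 fold change was 0.37 ± 0.07 (adjusted p = 0.000914). The calls of MRPL3 and MRPL1 were kept under every alternative run.

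MRPL15, a core protein of the large subunit, had 130, 130, 120 and 132 CPM with dCasMINI-VPR against 103, 116, 101 and 109 CPM with dCas12a-VPR (0.25, adjusted p = 0.00393). MRPL18 had 148, 165, 155 and 158 CPM with dCasMINI-VPR against 128, 152, 135 and 132 CPM with dCas12a-VPR (0.20, adjusted p = 0.0258). The constructs did not overlap for MRPL15, while crTet replicate 2 exceeded the lowest dCasMINI-VPR library for MRPL18. MRPL42, which is specific to mitochondria, had 177, 154, 144 and 149 CPM with dCasMINI-VPR against 143, 132, 135 and 133 CPM with dCas12a-VPR (0.20, adjusted p = 0.0202). Its lowest dCasMINI-VPR library lay just above its highest dCas12a-VPR library.

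MRPS35, specific to mitochondria and in the small subunit, had 111, 98.3, 91.7 and 86.6 CPM with dCasMINI-VPR against 79.5, 83.4, 84.8 and 90.6 CPM with dCas12a-VPR (0.19, adjusted p = 0.0388). Its values overlapped between sgNT and crNT. The other calls were MRPS2 (0.24, adjusted p = 0.0176), MRPL20 (0.20, adjusted p = 0.0249), MRPL23 (0.20, adjusted p = 0.0356) and MRPL12 (0.51 ± 0.16, adjusted p = 0.0413). In these 4 genes the crNT libraries were the lowest of the 8, and the crTet libraries overlapped the dCasMINI-VPR range.

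Apart from MRPL3 and MRPL1, these calls depended on single libraries, and 6 of them also on the processing. MRPL12 was lost in DESeq2 (adjusted p = 0.0646), with library size alone (0.053) and with forward-strand (0.0997) or reverse-strand counts (0.13). Library size alone also lost MRPS35 (0.0663) and MRPL23 (0.0604). Forward-strand counts also lost MRPL20 (0.0694), MRPL18 (0.154) and MRPS35 (0.145), and reverse-strand counts also lost MRPL20 (0.0688), MRPL23 (0.105) and MRPL42 (0.078). Without crNT replicate 1, 8 of the 10 were lost (adjusted p = 0.0591 to 0.217), and without sgNT replicate 2, 7 (0.0619 to 0.163). Without sgNT replicate 1 (0.0579 to 0.192), crNT replicate 2 (0.0687 to 0.124) or crTet replicate 1 (0.0569 to 0.209), 6 were lost. Without sgTet replicate 1 (0.0509 to 0.0917), sgTet replicate 2 (0.0702 to 0.0896) or crTet replicate 2 (0.0651 to 0.107), 2 were lost. The number of members called fell without either sgNT library, either crNT library or crTet replicate 1, most of all without crNT replicate 1. It rose without sgTet replicate 1. The number called over all genes tested moved the same way in each of these runs.

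The promoters of the 4 called members with the smallest adjusted p are printed, since the comparisons turn on these genes. Each covers 250 bases before to 50 after a RefSeq start on GRCh38.p14, read 5′ to 3′ on the gene's strand. MRPL3 is chr3:131502922-131503221 on the minus strand, MRPL1 is chr4:77862580-77862879 on the plus strand, MRPS2 is chr9:135500432-135500731 on the plus strand and MRPL12 is chr17:81703117-81703416 on the plus strand. Capitals mark an exact match to a motif core searched on both strands.
MRPL3: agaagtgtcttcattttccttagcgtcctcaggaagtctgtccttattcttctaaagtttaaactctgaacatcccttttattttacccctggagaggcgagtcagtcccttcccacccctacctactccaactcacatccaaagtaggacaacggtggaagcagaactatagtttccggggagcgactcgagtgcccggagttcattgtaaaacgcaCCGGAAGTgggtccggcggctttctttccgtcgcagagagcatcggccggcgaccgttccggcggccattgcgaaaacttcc
MRPL1: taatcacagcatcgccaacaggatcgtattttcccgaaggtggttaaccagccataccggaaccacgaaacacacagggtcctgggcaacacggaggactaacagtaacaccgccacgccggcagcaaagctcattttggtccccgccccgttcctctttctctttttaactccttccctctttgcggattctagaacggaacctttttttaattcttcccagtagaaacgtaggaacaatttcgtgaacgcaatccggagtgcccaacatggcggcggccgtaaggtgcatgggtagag
MRPS2: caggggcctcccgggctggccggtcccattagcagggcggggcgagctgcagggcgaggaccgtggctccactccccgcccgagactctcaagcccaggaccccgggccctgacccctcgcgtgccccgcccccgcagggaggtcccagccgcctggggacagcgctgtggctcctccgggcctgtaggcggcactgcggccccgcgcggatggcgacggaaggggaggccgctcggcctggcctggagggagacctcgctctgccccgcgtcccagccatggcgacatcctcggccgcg
MRPL12: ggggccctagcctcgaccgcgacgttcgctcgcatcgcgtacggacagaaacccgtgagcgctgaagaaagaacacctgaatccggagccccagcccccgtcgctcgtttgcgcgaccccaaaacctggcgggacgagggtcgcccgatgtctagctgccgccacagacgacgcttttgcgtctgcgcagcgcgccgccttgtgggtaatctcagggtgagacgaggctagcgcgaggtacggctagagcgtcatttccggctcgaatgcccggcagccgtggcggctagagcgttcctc

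The motif cores belong to factors known for nuclear genes of mitochondrial proteins: NRF1 (GCATGCGC), ETS factors such as GABPA (CCGGAAGT) and YY1 (AAGATGGCG). Sites of the last can overlap a reverse-strand NRF1 core by a shared GCG. The MRPL3 promoter holds the ETS core 32 bases before the start, and the other 3 hold none of these exact letters in this window, which says nothing about the factors. RefSeq promoters were matched for 69 of the 78 members, 85 starts in all. Of these, 16.5% held the ETS core against 4.14% of all 35116 promoters, 15.3% held the YY1 letters against 1.75%, and 7.06% held the NRF1 core against 3.05%. Any of the 3 was held by 31.8% of member promoters against 8.35% of all. The ETS core was in 9.09% of the 33 MRPS promoters, which is 3 of them, and in 21.2% of the 52 MRPL promoters. The YY1 letters were in 15.2% of MRPS and 15.4% of MRPL promoters, and the NRF1 core in 6.06% and 7.69%. Median G+C was 60.3% in member promoters and 58.7% in all.

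The small and the large subunit were compared by the medians of their members, as a description. With dCasMINI-VPR the median log2 fold change was 0.155 over 28 MRPS genes and 0.072 over 48 MRPL genes, and with dCas12a-VPR it was 0.105 over MRPS and 0.152 over MRPL genes. The difference of guide effects had medians of -0.041 for MRPS and -0.059 for MRPL genes, and the construct difference had medians of 0.053 for MRPS and 0.109 for MRPL genes. The MRPS median minus the MRPL median was thus 0.083 with dCasMINI-VPR, -0.048 with dCas12a-VPR, 0.019 for the difference of guide effects and -0.056 between constructs. None of these differences of medians was tested. The MRPS minus MRPL median of log2 CPM, which is a level and not a fold change, had an SD of 0.079 between replicate libraries. With dCasMINI-VPR it was -0.005 without sgNT replicate 2, and for the difference of guide effects 0.106 without crTet replicate 2. Counting MRPS30 and MRPS18A with the large subunit gave medians of 0.157 for the small and 0.072 for the large subunit with dCasMINI-VPR, and of 0.104 for the small and 0.150 for the large with dCas12a-VPR.

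**Figure D4:**
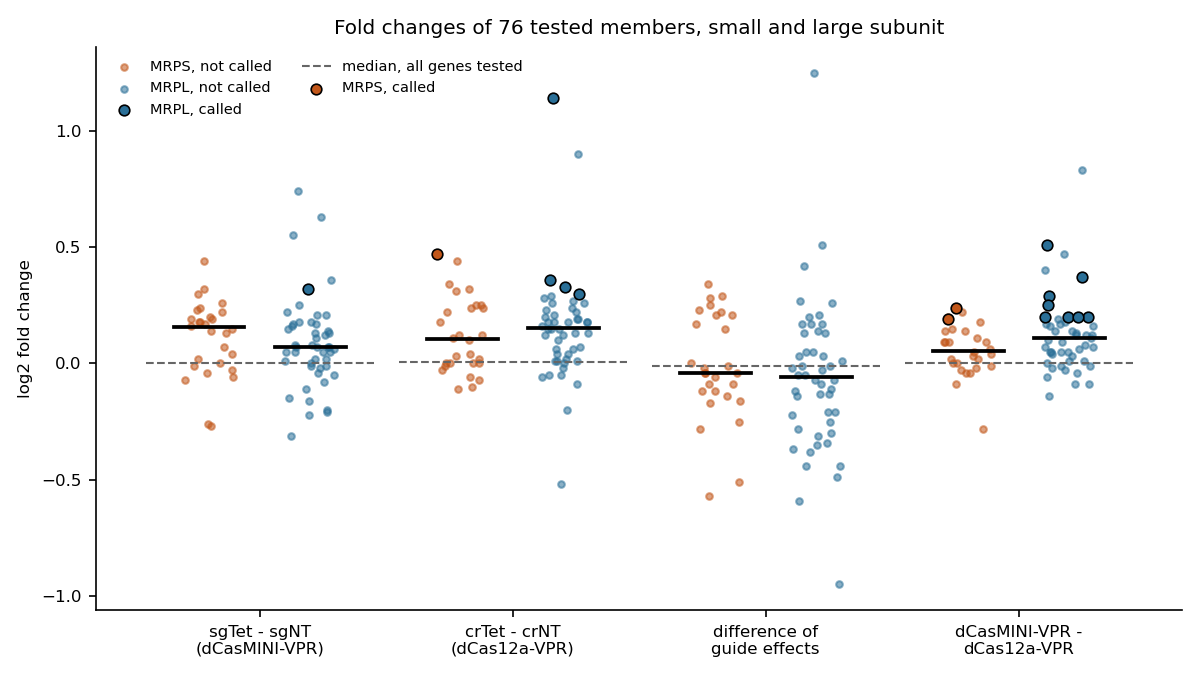
Log2 fold change (y axis) of the 76 tested members in the 4 comparisons, with MRPS genes in orange and MRPL genes in blue. Outlined points were called, black lines are the medians of each subunit and dashed lines the median of all genes tested. Medians lie above the dashed line in both guide effects and the construct difference, and the difference of guide effects has no outlined point.

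Summed over the 29 MRPS genes, levels were 2109 and 2232 CPM in sgTet against 2068 and 2043 CPM in sgNT, and 1980 and 2168 CPM in crTet against 1909 and 1971 CPM in crNT. Summed over the 49 MRPL genes, they were 4274 and 4553 CPM in sgTet against 4247 and 4256 CPM in sgNT, and 4026 and 4412 CPM in crTet against 3811 and 3982 CPM in crNT. Each Tet library exceeded both libraries of its non-targeting group in either sum, and replicate 1 was the lower of both Tet pairs. The ratio of the MRPS to the MRPL sum stayed between 0.480 and 0.501 in all 8 libraries. The members together held 0.583% to 0.665% of gene reads. In crTet, replicate 1 was below replicate 2 by a median of 0.16 on the log2 scale over the tested members. Fewer cells that express a gene and less RNA per cell cannot be told apart in these bulk libraries.

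**Figure D5:**
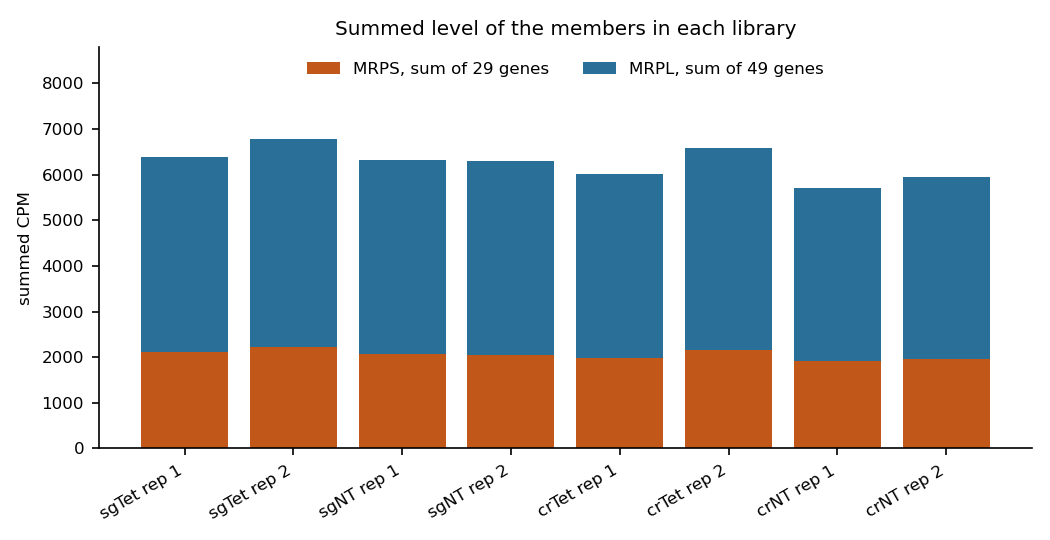
Summed CPM (y axis, from 0) of the MRPS genes (orange) and the MRPL genes (blue, stacked above) in each library. Totals run from 5719 CPM in crNT replicate 1 to 6785 CPM in sgTet replicate 2, and the orange part keeps nearly the same proportion throughout.

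The 3 MRPS18 paralogs, which descend from the same bacterial S18 gene, were not called in any comparison. Their levels differed in the column that ignores strand. There MRPS18B had 47.8 CPM per kb, MRPS18A 23.2 CPM per kb and MRPS18C, the copy closest to bacterial S18, 0.936 CPM per kb. Over all libraries that column held 11550 reads for MRPS18B, 3873 for MRPS18A and 243 for MRPS18C. The 2 strand columns together held 11554, 10164 and 8478 reads in the same order. The gap between the paralogs thus depended on the column used. With dCasMINI-VPR their log2 fold changes were 0.14 ± 0.09 for MRPS18B, 0.07 ± 0.13 for MRPS18A and 0.44 ± 0.46 for MRPS18C, and with dCas12a-VPR they were -0.01 ± 0.09, 0.11 ± 0.13 and 0.22 ± 0.44 in the same order. MRPS30 gave 0.19 ± 0.09 with dCasMINI-VPR (adjusted p = 0.388). It gave -0.07 ± 0.09 with dCas12a-VPR (adjusted p = 0.755). Named pseudogenes exist for 34 members, 75 in all, and whether reads were shared with such copies was not tested.

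Among the partners of these proteins, mitochondrial mRNAs were called higher with both activators, and the large-subunit rRNA with dCas12a-VPR. MT-RNR2, the rRNA of the large subunit, had 4686 and 5106 CPM in crTet against 3802 and 3862 CPM in crNT (0.35 ± 0.07, adjusted p = 0.00257), a call lost without crNT replicate 1 (0.0995) or crTet replicate 2 (0.0526). It had 4591 and 3825 CPM in sgTet against 3506 and 3680 CPM in sgNT, which was not called. Over both guides MT-RNR2 was called lower with dCasMINI-VPR (-0.16 ± 0.05, adjusted p = 0.0476). That call was lost in DESeq2 (0.0798), with DESeq2 size factors (0.0541), with forward-strand (0.071) or reverse-strand counts (0.0786), and without any library but the first replicates of sgTet and crTet (0.134 to 0.227). MT-RNR1, the rRNA of the small subunit, had 1589 and 1493 CPM in sgTet against 1440 and 1881 CPM in sgNT, and 1719 and 1988 CPM in crTet against 1615 and 1661 CPM in crNT. It was called in none of the 4 comparisons. Poly(A) selection limits what rRNA counts mean. Of 13 mitochondrial mRNAs, 2 were called higher with dCasMINI-VPR, MT-ND3 (0.57, adjusted p = 7.93e-05) and MT-CO3 (0.38, adjusted p = 0.0022). MT-ND3 had 873 and 915 CPM in sgTet against 637 and 570 CPM in sgNT, and the MT-CO3 call was lost without sgTet replicate 1 (0.0748), sgNT replicate 1 (0.246) or sgNT replicate 2 (0.05). With dCas12a-VPR 8 of the 13 were called higher, MT-ND3 with the smallest adjusted p (0.55 ± 0.08, adjusted p = 9.05e-05), and DESeq2 called 11. Of the 8, MT-CO3 was lost without any of 3 libraries (0.073 to 0.193) or with the length and G+C trend removed (0.0814), MT-ND5 without any of 3 libraries (0.0786 to 0.174), and MT-ND6 without any of 4 libraries (0.0731 to 0.124) or with forward-strand counts (0.0891). Between constructs MT-ATP6, a subunit of ATP synthase, was called higher with dCasMINI-VPR (0.30 ± 0.08, adjusted p = 0.0454). It had 2813, 2093, 1574 and 1683 CPM in dCasMINI-VPR libraries against 1878, 2083, 1289 and 1364 CPM in dCas12a-VPR libraries, which overlapped. The MT-ATP6 call was lost without any of 4 libraries (0.0802 to 0.194), in DESeq2 (0.0639), with library size alone (0.0699), with forward-strand counts (0.0979) and with a replicate block (0.102). Mitochondrial genes held 4.57% and 3.49% of gene reads in sgTet, 3.09% and 3.33% in sgNT, 3.9% and 4.03% in crTet and 2.97% and 3.04% in crNT.

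SLIRP, the RNA-binding partner of LRPPRC that protects mitochondrial mRNAs, was the translation-related gene called with both activators. It had 107 and 98.9 CPM in sgTet against 73.4 and 68.5 CPM in sgNT (0.54 ± 0.09, adjusted p = 0.00094), which no longer passed without sgNT replicate 2 (0.0899). It had 71.2 and 84.2 CPM in crTet against 58.5 and 58.2 CPM in crNT (0.41 ± 0.09, adjusted p = 0.00574), a call lost without crTet replicate 2 (0.169), crNT replicate 1 (0.113) or crNT replicate 2 (0.0828), and with forward-strand (0.113) or reverse-strand counts (0.0902). Of 14 translation factors tested, SLIRP alone was called with dCasMINI-VPR, and SLIRP and MTRFR, a release factor relative, with dCas12a-VPR (MTRFR 0.46, adjusted p = 0.0322, lost without either library of crTet or crNT, 0.105 to 0.253, with library size alone, 0.0516, and with forward-strand counts, 0.0869). LRPPRC itself had 416 and 347 CPM in sgTet against 334 and 318 CPM in sgNT, and 323 and 311 CPM in crTet against 358 and 361 CPM in crNT. Its guide effects differed by 0.41 ± 0.11 (adjusted p = 0.0461), a call lost when any library but sgTet replicate 2 was left out (0.083 to 0.342), and with library size alone (0.0548), forward-strand (0.0847) or reverse-strand counts (0.0805).

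Among 14 genes of mitochondrial transcription and biogenesis, MYC, whose product is known to raise ribosome production, and the coactivator gene PPARGC1B were called higher with dCas12a-VPR. The PPARGC1B call (0.42, adjusted p = 0.0445) was lost without any library of crTet, crNT or sgNT (0.061 to 0.499), and with forward-strand (0.0653) or reverse-strand counts (0.208), library size alone (0.0657) or the length and G+C trend removed (0.0717). MYC had 133 and 129 CPM in crTet against 80.5 and 95.5 CPM in crNT (0.57 ± 0.08, adjusted p = 6.82e-05). With dCasMINI-VPR 0 of the 14 were called by edgeR or DESeq2, and 4 had an unadjusted p under 0.05. Over both guides MYC (0.30), PPRC1 (0.31) and POLRMT, the mitochondrial RNA polymerase (0.21), were called higher with dCasMINI-VPR. POLRMT no longer passed when either crNT library (0.112 without replicate 1, 0.052 without replicate 2) or sgNT replicate 2 (0.103) was left out, each an adjusted p. Of 24 ribosome assembly and rRNA modification factors tested and of 5 ribosomal proteins with other names (DAP3, CHCHD1, PTCD3, AURKAIP1 and GADD45GIP1), 0 were called by edgeR in any comparison, although 6 of the 24 and 1 of the 5 had an unadjusted p under 0.05 between constructs. DESeq2 called 1 of the 24 there. The 81 cytosolic ribosomal protein genes tested had 4 called higher with dCasMINI-VPR and 20 with dCas12a-VPR, with medians of 0.095 and 0.172.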

How the data were processed

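Reads per gene were deposited by the authors as raw counts, 1 table per library with 3 count columns, of which the column that ignores strand was used. Alignment with STAR to hg38 is named in the submitters' processing notes; the STAR version, the annotation and the counting options are not given in the sources used here. The 4 totals that name no gene (among them unmapped 8.32% to 14.4% and ambiguous 10.4% to 11.2%) were not used in library sizes or tests. Of the 60652 gene rows, 60438 have a symbol and 58405 a GENCODE 29 position. Members and gene lists were chosen with earlier results of these data known.

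Counts were fitted with edgeR 4.0.16 in R 4.3.3 (quasi-likelihood, robust) in 1 model of 8 libraries with a mean for each of 4 groups, TMM scaling and filterByExpr by group, which kept 16606 genes and 76 of 78 members; MRPL53 and MRPS24 did not pass. The biological coefficient of variation was 8.04%, with 4 residual and 28.9 prior degrees of freedom. Tests were two-sided, and a call needed an adjusted p under 0.05 (Benjamini-Hochberg, over all genes tested). CPM use TMM-adjusted library sizes, SE is the size of the log2 fold change over the root of F, and levels per length use the median principal transcript of GENCODE 29. The named members are those called, the 5 highest and 5 lowest per length, the MRPS18 paralogs, MRPS30, the stalk proteins and the mitochondrial rRNAs, with genes of other lists only where called. MRPL35, MRPS34, MRPS26 and the members called without sgTet replicate 2 were named after their values were seen. Alternatives were DESeq2 1.42.0, DESeq2 size factors, library size alone, no filter, only the groups compared, either strand column, a length and G+C trend removed, a replicate block and each library left out. With 1 library left in a group, that library is taken to vary as the other groups do. Promoter sequences are from RefSeq.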

Additional observations from a re-analysis of the deposited data

Results flagged for a closer look

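For many members the strand columns together held more reads than the column that ignores strand, which the comparisons use. The 10 with the highest ratios are given first. The ratio of the forward plus reverse reads to the strand-ignoring reads, over all 8 libraries, was 34.9 for MRPS18C, 2.62 for MRPS18A and 2.55 for MRPS2. It was 2.42 for MRPS9, 2.41 for MRPL4, 2.25 for MRPS25 and 2.21 for MRPL9. It was 1.99 for MRPL2, 1.91 for MRPS34 and 1.75 for MRPS11. MRPS2 and MRPL4 are among the members called with dCas12a-VPR, and neither was called there with the reads of either strand column. MRPL3, the member called with dCasMINI-VPR, had a ratio of 1.26. It was not called there with forward-strand (0.23) or reverse-strand counts (0.19), while its call between constructs was kept with both. MRPL20, with a ratio of 1.22, was called with dCas12a-VPR on reverse-strand but not on forward-strand counts. The library protocol does not state a strand, and forward and reverse reads were similar in number for the members. Reads of a member and of a gene on the other strand thus cannot be told apart in those columns. MRPL10, which shares no exon base, had 8891 forward and 8266 reverse reads against 17154 in the column that ignores strand. Each strand column thus held fewer reads for such a gene. For MRPS2 each held more, 12243 forward and 11857 reverse reads against 9464 in the column that ignores strand. For MRPL4 each also held more, 13485 and 13361 against 11138. Whether read numbers ended any call was not tested.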

How the results depend on the processing

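No gene called in a comparison changed direction in it under the alternatives run. The number called over all genes tested also differed between these runs. Members called with dCasMINI-VPR (1) became 0 with library size alone, with only the groups compared and with forward- or reverse-strand counts, 2 without the filter and 3 with the length and G+C trend removed; without single libraries they ran from 0 to 16. With dCas12a-VPR (5) they became 3 with library size alone, 14 with only the groups compared, 1 with forward-strand counts and 11 with the trend removed, and ran from 0 to 17 without single libraries. For the difference of guide effects (0) they became 2 without the filter and ran from 0 to 14. Between constructs (10) they became 6 with forward- or reverse-strand counts and 19 with the trend removed, and ran from 2 to 17. With a replicate block, the counts were 2 with dCasMINI-VPR, 7 with dCas12a-VPR, 1 for the difference and 11 between constructs; same-numbered libraries of 2 groups deviated together with correlations of -0.03 to 0.05, so they share only a number.

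The members' median log2 fold change without single libraries ran from 0.077 to 0.102 with dCasMINI-VPR, 0.073 to 0.178 with dCas12a-VPR, -0.120 to 0.012 for the difference and 0.054 to 0.122 between constructs. With library size alone it was 0.042 with dCasMINI-VPR, where all genes shifted to a median of -0.039. The MRPS minus MRPL median ran from -0.005 to 0.130, from -0.066 to -0.047, from 0.014 to 0.106 and from -0.059 to -0.010 in the same order, and was 0.112 for the difference with reverse-strand counts. The causes were not tested. Members under 11 CPM rest on few reads, and 2 libraries a group limit every comparison.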
